A study of Mus musculus with 6 samples.

Results

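The serpins are a family of proteins that share one fold, in which an exposed loop acts as bait for a protease. Inhibitory members trap the protease that cuts the loop and are used up in doing so, while a few members have lost this function and serve as chaperones or signals. In macrophages, serpins are known for restraining plasminogen activation outside the cell and for protecting the cytoplasm from granule and lysosomal proteases. The family genes were taken by symbol, as every row of the deposited table named Serpin followed by a clade letter from a to i and a digit, which gave 69 of 56691 genes. Measured members, with at least 30 counts over all libraries, numbered 31. Of these, 9 had a mean of at least 1 FPKM (fragments per kilobase of exon, scaled to the library's size) in transwell libraries and 22 did not. Of the other 38 members, 23 had no count and 15 had 1 to 27 counts.

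RNA sequencing was done on mouse bone marrow-derived macrophages grown with M-CSF, the macrophage growth factor, and sorted after co-culture with mEC25, which the labels call a cancer cell line. In the contact group (3 libraries) macrophages and cancer cells were cultured together, and in the transwell group (3 libraries) they shared medium without touching. The labels give no genotype, strain or age, and macrophages or mEC25 cells cultured alone were not analysed here. No label ties a replicate to its own culture or animal. P-values therefore speak of the spread among these libraries, and that spread may be technical.

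Library totals ran from 18173192 to 22563835 counts. All 15 macrophage markers were detected in all 6 libraries, with a summed level of 17355 to 19750 FPKM, of which the lysozyme gene Lyz2 gave 11412 to 13785 FPKM. Of the 15, 4 were higher and 5 lower in contact, where 21.4% of all genes tested were called higher and 16.1% lower. Adgre1, which encodes the macrophage marker F4/80, stood at 521 to 635 FPKM in contact and 1164 to 1323 FPKM in transwell libraries. Markers of other cells differed between libraries. The 30 epithelial markers summed to 1166, 1753 and 999.7 FPKM in contact replicates 1 to 3 and to 9.42, 10.4 and 9.72 FPKM in transwell replicates 1 to 3. Of 26 tested markers 26 rose, but 21 of them had fewer than 2 transwell libraries above the filter's minimum and could hardly be called lower. All 30 had a count in every contact library and 15 to 23 did in transwell libraries. The 10 fibroblast markers summed to 25.6, 17.5 and 11.1 FPKM in contact and 8.39, 3.91 and 3.72 FPKM in transwell libraries. The 5 liver markers, led by the albumin gene Alb, did not follow the groups: they summed to 61.9, 3.44 and 17.3 FPKM in contact and 0.07, 60.1 and 0.28 FPKM in transwell libraries, where 1, 5 and 2 of the 5 had a count. Markers of T and NK cells, B cells, mast cells and endothelium summed to at most 14.7 FPKM per list in any library. In RNA from a mixed population, fewer cells of a type and less RNA per cell cannot be told apart.

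Most mouse serpin genes lie in arrays of neighbours, and the array on chromosome 1 held both serpins with the largest rises and serpins that did not pass the test. Over 0.749 Mb (106861173 to 107610484, GENCODE positions on GRCm38, as all gene positions here) it holds 12 members, of which 5 were measured. Serpinb5 and Serpinb10 rose in contact libraries, while Serpinb2, Serpinb8 and Serpinb12 were not called. In the same edgeR test 21.4% of all genes tested were called higher and 16.1% lower. Serpinb5 passed the filter on low counts through contact libraries alone. Serpinb11 and Serpinb7, with fewer than 30 counts each over all libraries, lie between Serpinb12 and Serpinb2. So do Serpinb13 and Serpinb3a to Serpinb3d, which had 0 counts in every library. To show how alike or unlike these neighbours are at their starts, the RefSeq promoter windows (GRCm38.p6, plus strand, from 250 bases before to 50 bases after the start) of 4 of them are printed here 5′ to 3′. Capitals mark TGANTCA, which is looser than TGA(C/G)TCA, the consensus of AP-1 transcription factors, as it takes any middle base. As a pattern it reads the same on both strands.
Serpinb5, chr1:106860925-106861224: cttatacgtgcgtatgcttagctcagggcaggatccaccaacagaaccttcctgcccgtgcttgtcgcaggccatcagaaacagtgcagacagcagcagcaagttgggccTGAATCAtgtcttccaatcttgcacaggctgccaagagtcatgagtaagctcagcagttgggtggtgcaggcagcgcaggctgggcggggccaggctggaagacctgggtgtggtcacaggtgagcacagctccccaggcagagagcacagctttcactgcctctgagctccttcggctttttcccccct
Serpinb2, chr1:107511173-107511472: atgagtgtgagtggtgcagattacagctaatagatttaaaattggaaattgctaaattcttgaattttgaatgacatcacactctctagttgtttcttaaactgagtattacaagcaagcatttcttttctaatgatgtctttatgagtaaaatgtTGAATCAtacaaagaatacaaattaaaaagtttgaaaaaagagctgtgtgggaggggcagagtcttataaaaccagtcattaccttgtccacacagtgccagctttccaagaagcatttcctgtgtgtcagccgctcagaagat
Serpinb10, chr1:107528753-107529052: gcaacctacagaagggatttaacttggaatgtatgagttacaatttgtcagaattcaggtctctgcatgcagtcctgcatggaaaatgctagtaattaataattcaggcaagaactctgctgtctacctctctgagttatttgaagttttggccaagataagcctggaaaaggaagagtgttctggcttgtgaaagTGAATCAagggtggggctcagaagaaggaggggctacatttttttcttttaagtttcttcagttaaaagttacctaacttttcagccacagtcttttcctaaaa
Serpinb8, chr1:107589756-107590055: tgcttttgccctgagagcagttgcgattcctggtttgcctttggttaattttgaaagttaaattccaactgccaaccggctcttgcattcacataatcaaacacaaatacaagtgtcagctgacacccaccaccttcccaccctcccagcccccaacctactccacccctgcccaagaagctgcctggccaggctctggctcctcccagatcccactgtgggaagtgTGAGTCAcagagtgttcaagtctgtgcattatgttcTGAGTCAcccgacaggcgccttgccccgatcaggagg

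The Serpinb5, Serpinb2 and Serpinb10 windows each held TGANTCA once, starting 140, 94 and 54 bases before the start. All had the letters TGAATCA, which lie outside the AP-1 consensus. The Serpinb8 window held it in 2 places, as TGAGTCA, 23 bases before and 13 bases after the start. Serpinb2 has 2 windows in the RefSeq table and the first is shown. Of 27 measured members with a window, 9 held this looser pattern in any of their windows (33.3%), and of all 32851 windows 7.81% did. The 9 were Serpinb5, Serpinb2, Serpinb10, Serpinb8, Serpinb12 and the near-identical Serpina1a, Serpina1b, Serpina1c and Serpina1d. A match in this window describes letters and not a binding site, and among the 4 printed windows it stood in genes that rose and in genes that were not called.

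In the fit over all 14113 tested genes (edgeR's quasi-likelihood test, Benjamini-Hochberg adjusted p under 0.05), 7 of 26 tested serpins were higher in contact and 3 were lower. Of all genes tested, 21.4% were called higher and 16.1% lower. The median log2 change was 0.34 over the tested serpins and 0.03 over all genes tested. Of the 26, 8 passed the filter on low counts with fewer than 2 transwell libraries above its minimum. Among the 9 members with a transwell mean of at least 1 FPKM, 2 were higher and 2 lower, where 14.6% of all tested genes at that level were called higher and 20.6% lower. Among the 17 tested members below it, 5 were higher and 1 was lower, where 40.2% and 3.43% of such genes were called.

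**Figure D1:**
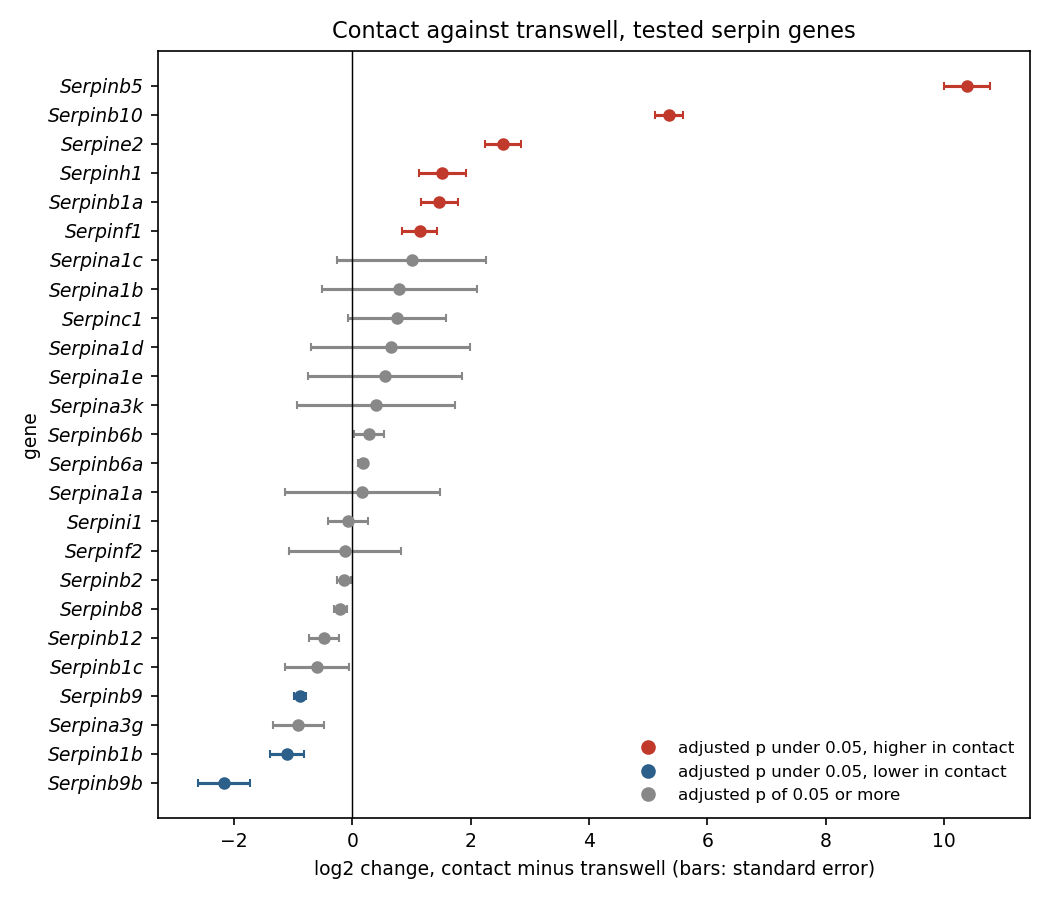
Log2 change (contact minus transwell, edgeR) with its standard error for tested serpin genes, coloured by whether the adjusted p was under 0.05. Serpinb5 and Serpinb10 stand far to the right, Serpinb9, Serpinb1b and Serpinb9b are called lower, and the wide bars belong to the Serpina1 genes, Serpina3k, Serpinc1 and Serpinf2.

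The most abundant serpins in transwell macrophages were 4 clade B genes, whose products stay largely inside the cell. By transwell mean they were Serpinb6a (29.5 FPKM), Serpinb2 (26.1 FPKM), Serpinb8 (15.1 FPKM) and Serpinb9 (10.9 FPKM). Serpinb2 spanned 23.7 to 28.9 FPKM and Serpinb6a 29.3 to 29.7 FPKM there, so these neighbours in the order did not overlap. Together the 4 made up 64.5 to 87.8% of the family's summed FPKM in transwell and 45.3 to 58.6% in contact libraries. The family's summed level was 172, 160 and 141 FPKM in contact and 96.2, 125 and 98.9 FPKM in transwell libraries. Clade B (29 members, 13 measured) made up most of it, with 122 ± 13.6 FPKM in contact and 88.0 ± 4.72 FPKM in transwell libraries (SD, n = 3). Clade A (29 members, 9 measured) ranged from 2.29 to 36.1 FPKM in contact and from 0.63 to 31.5 FPKM in transwell libraries. The mostly secreted clades C to I together had 19.2 ± 4.88 FPKM in contact and 7.70 ± 2.88 FPKM in transwell libraries.

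Serpinb6a (ENSMUSG00000060147, chromosome 13, 33917918 to 34002794 on GRCm38), an intracellular inhibitor of serine proteases such as cathepsin G, was the highest serpin of the family in both groups. Its level was 37.2, 37.9 and 33.4 FPKM in contact and 29.7, 29.3 and 29.6 FPKM in transwell libraries. Every contact library was above every transwell library. After scaling by library composition the log2 change was 0.18 ± 0.07 (SE), which did not pass the test (edgeR adjusted p = 0.0825, and 0.0184 to 0.431 over the alternatives). The gene overlaps Nqo2 and Ripk1 on the other strand, and without the strand setting of the counting their reads cannot be told apart. In limma on log2(FPKM + 1) it was called, with a log2 change of 0.28 where the median of all genes was 0.09.

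Serpinb2 (chromosome 1, 107511423 to 107535478), an inhibitor of urokinase and a well-known product of activated macrophages, stood at 21.4, 29.2 and 26.1 FPKM in contact. In transwell libraries it stood at 23.7, 25.6 and 28.9 FPKM, so the groups overlapped. The log2 change was -0.14 ± 0.12 (SE, edgeR adjusted p = 0.386). Serpinb8 (chromosome 1, 107590006 to 107610484), an intracellular inhibitor known to act on furin, was at 13.4, 13.5 and 15.8 FPKM in contact and 13.3, 14.9 and 17.2 FPKM in transwell libraries. Its groups overlapped as well, and its log2 change was -0.20 ± 0.11 (SE, edgeR adjusted p = 0.193). Neither call changed under any of the 16 alternatives.

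Serpinb9 (ENSMUSG00000045827, chromosome 13, 33003250 to 33017957), the intracellular inhibitor of granzyme B, fell in contact. Its level was 5.83, 6.15 and 7.26 FPKM in contact and 10.8, 10.9 and 11.1 FPKM in transwell libraries. The highest contact library lay below the lowest transwell library, and the log2 change was -0.89 ± 0.10 (SE, edgeR adjusted p = 1.0e-04). Its neighbour and close relative Serpinb9b fell further from a lower level, with 0.11, 0.21 and 0.32 FPKM (8, 15 and 24 counts) in contact. In transwell libraries Serpinb9b had 1.11, 0.53 and 1.04 FPKM (70, 32 and 65 counts), and its log2 change came to -2.17 ± 0.44 (SE, edgeR adjusted p = 0.00345). An antisense gene, Gm36099, overlaps Serpinb9b. Gzmb, the gene of granzyme B itself, was low in both groups, at 0.18 ± 0.0458 FPKM in contact and 0.597 ± 0.199 FPKM in transwell libraries (SD, n = 3), and fell by 1.83 on the log2 scale.

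Serpinb1a and Serpinb1b, neighbours of one subfamily, moved in opposite directions. Serpinb1a (chromosome 13, 32842092 to 32851185), an inhibitor of neutrophil elastase, cathepsin G and proteinase 3, stood at 3.39, 3.26 and 2.13 FPKM in contact and 1.47, 0.67 and 0.77 FPKM in transwell libraries. The groups did not overlap, and the log2 change was 1.47 ± 0.31 (SE, edgeR adjusted p = 0.005). Serpinb1b (chromosome 13, 33078575 to 33094380) stood at 1.27, 1.29 and 0.61 FPKM in contact and 2.09, 2.06 and 2.12 FPKM in transwell libraries. All contact libraries were lower, and the log2 difference was -1.10 ± 0.29 (SE, edgeR adjusted p = 0.0139). Of their transcripts, 3.42% (Serpinb1a) and 3.52% (Serpinb1b) of 50-base stretches occur in another gene's transcript, so few reads could be split between them. The third gene of the subfamily, Serpinb1c, had 6 to 16 counts in contact and 5 to 19 in transwell libraries and was not called.

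The genes of proteases that Serpinb1a inhibits were called higher in contact as well. Elane, the gene of neutrophil elastase, was at 31.2, 35.5 and 21.2 FPKM in contact and 6.08, 2.68 and 3.01 FPKM in transwell libraries. In both Serpinb1a and Elane, transwell replicate 1 was the highest of its group and contact replicate 3 the lowest. The highest contact library was replicate 1 for Serpinb1a and replicate 2 for Elane. Elane rose by 2.77 ± 0.29 (log2, SE), the cathepsin G gene Ctsg by 2.19 ± 0.31 and the proteinase gene Prtn3 by 1.20 ± 0.32. The 10 neutrophil markers, Elane among them, summed to 1199, 943 and 847 FPKM in contact and 1366, 727 and 729 FPKM in transwell libraries. Of 9 tested neutrophil markers 3 were higher and 1 was lower in contact, where 21.4% and 16.1% of all genes tested were. Mmp8 was at 69.9, 74.6 and 85.3 FPKM in contact and 223, 218 and 243 FPKM in transwell libraries. The part of neutrophil transcripts in the Serpinb1a result was not tested.

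**Figure D2:**
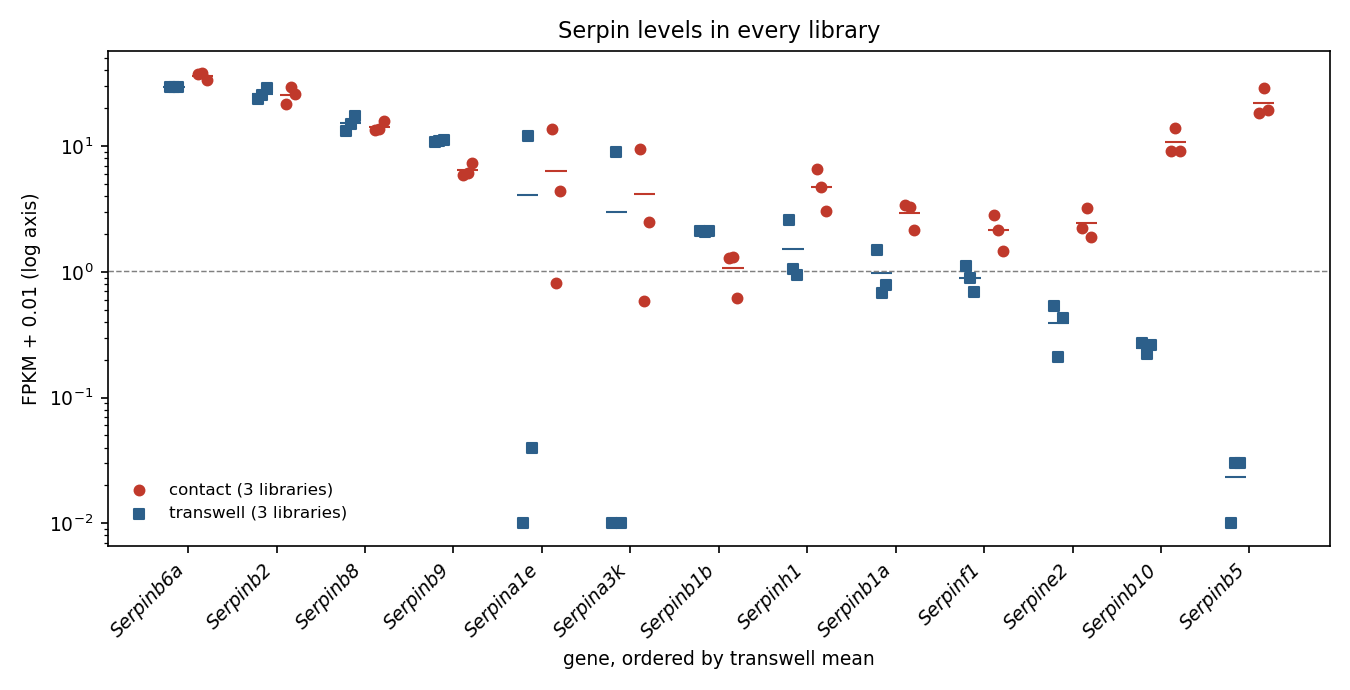
FPKM + 0.01 on a log axis in each library for 13 serpin genes with a transwell mean of at least 1 FPKM (dashed line at 1 FPKM) or called with a contact mean of at least 1 FPKM, with horizontal bars at group means. Serpinb5 and Serpinb10 part the groups most, Serpinb9 and Serpinb1b are lower in contact, and Serpina1e and Serpina3k spread within each group.

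Serpinb5 (ENSMUSG00000067006, chromosome 1, 106861173 to 106883348), known as maspin and described as a tumour suppressor of epithelium, was high in contact libraries and near 0 in transwell libraries. It had 18.3, 29.0 and 19.2 FPKM (1137, 1670 and 1171 counts) in contact and 0, 1 and 1 counts in transwell replicates 1 to 3. The ratio of counts per library total was 1685, with an exact 95% interval of 466 to 13919 that covers counting error only (edgeR adjusted p = 2.9e-07). Serpinb5 passed the filter on low counts through contact libraries alone, so it could hardly be called lower. Contact replicate 2 was the highest of the 3, as it was for the epithelial markers. Relative to the mean of the contact libraries, Serpinb5 stood at 0.826, 1.31 and 0.865 in replicates 1 to 3, and the summed epithelial markers at 0.892, 1.34 and 0.765.

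Serpinb10 (chromosome 1, 107529003 to 107549271), a clade B gene known from blood-forming cells, rose from a low but measurable level. It stood at 9.07, 13.9 and 9.07 FPKM in contact and 0.26, 0.21 and 0.25 FPKM (17, 13 and 16 counts) in transwell libraries. The log2 change was 5.35 ± 0.23 (SE, edgeR adjusted p = 4.9e-07), with no overlap of groups. GENCODE lists Serpinb10 as a polymorphic pseudogene that overlaps Serpinb2 on the same strand, and 6.61% of its 50-base stretches occur in Serpinb2 transcripts. Serpinb2 itself was not called.

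Serpine2 (chromosome 1, 79794197 to 79861180), which encodes an inhibitor of thrombin and urokinase, stood at 2.20, 3.23 and 1.88 FPKM in contact and 0.52, 0.20 and 0.42 FPKM in transwell libraries. Its log2 change was 2.55 ± 0.30 (SE, edgeR adjusted p = 1.4e-04). Serpinb10 and Serpine2, too, were highest in contact replicate 2, at 1.30 and 1.33 of the contact mean against 1.34 for the epithelial markers. The B cell markers (0.949, 1.17 and 0.879 of the contact mean) and Elane (31.2, 35.5 and 21.2 FPKM) also peaked in contact replicate 2. In transwell libraries Serpinb10 and Serpine2 were lowest in replicate 2, where the summed epithelial markers were highest. Most of that sum came from Itga6 and Sfn, which did not share an order. Itga6 was highest in transwell replicate 2 (3.39, 4.92 and 4.02 FPKM in replicates 1 to 3), and Sfn was lowest there (4.40, 3.68 and 4.04 FPKM). The part of epithelial transcripts in the rises of Serpinb5, Serpinb10 and Serpine2 was not tested.

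Serpinh1 and Serpinf1 rose by less, and their calls did not hold with every library left out in turn. Serpinh1 (chromosome 7, 99345376 to 99353239), the collagen chaperone of the endoplasmic reticulum and no protease inhibitor, had 6.51, 4.70 and 3.01 FPKM in contact and 2.58, 1.04 and 0.93 FPKM in transwell libraries. Its log2 change was 1.52 ± 0.39 (SE, edgeR adjusted p = 0.0131). Serpinf1 (chromosome 11, 75409769 to 75422701), a secreted factor known to restrain vessel growth, had 2.80, 2.13 and 1.45 FPKM in contact and 1.10, 0.89 and 0.68 FPKM in transwell libraries (log2 change 1.14 ± 0.29, SE, edgeR adjusted p = 0.0127). For both genes the groups did not overlap. Both calls ended in edgeR without contact replicate 1 (1.22 for Serpinh1, adjusted p = 0.0567, and 0.88 for Serpinf1, adjusted p = 0.0606). They also ended without transwell replicate 3 (1.26, adjusted p = 0.0578, and 0.97, adjusted p = 0.0562). The number of all genes called fell as well in these fits, from 5286 to 4151 and 4042.

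Across the contact libraries these genes ranked as the fibroblast markers did, with replicate 1 highest and replicate 3 lowest. Relative to the contact mean the fibroblast markers stood at 1.41, 0.969 and 0.616, Serpinh1 at 1.37, 0.992 and 0.635, and Serpinf1 at 1.32 and 0.682 in replicates 1 and 3. In transwell libraries replicate 1 was the highest for the fibroblast markers and for both genes. The neutrophil markers (1.20, 0.947 and 0.850 of the contact mean) and the mast cell and basophil markers (1.59, 0.723 and 0.688) had the same order in contact and were also highest in transwell replicate 1. Of 8 tested fibroblast markers 5 rose and 0 fell, where 21.4% and 16.1% of all genes tested did. Col1a1, a collagen that Serpinh1 folds, was at 15.3, 10.1 and 6.20 FPKM in contact and 4.86, 1.78 and 1.82 FPKM in transwell libraries. The part of any of these cell types in the serpin results was not tested.

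**Figure D3:**
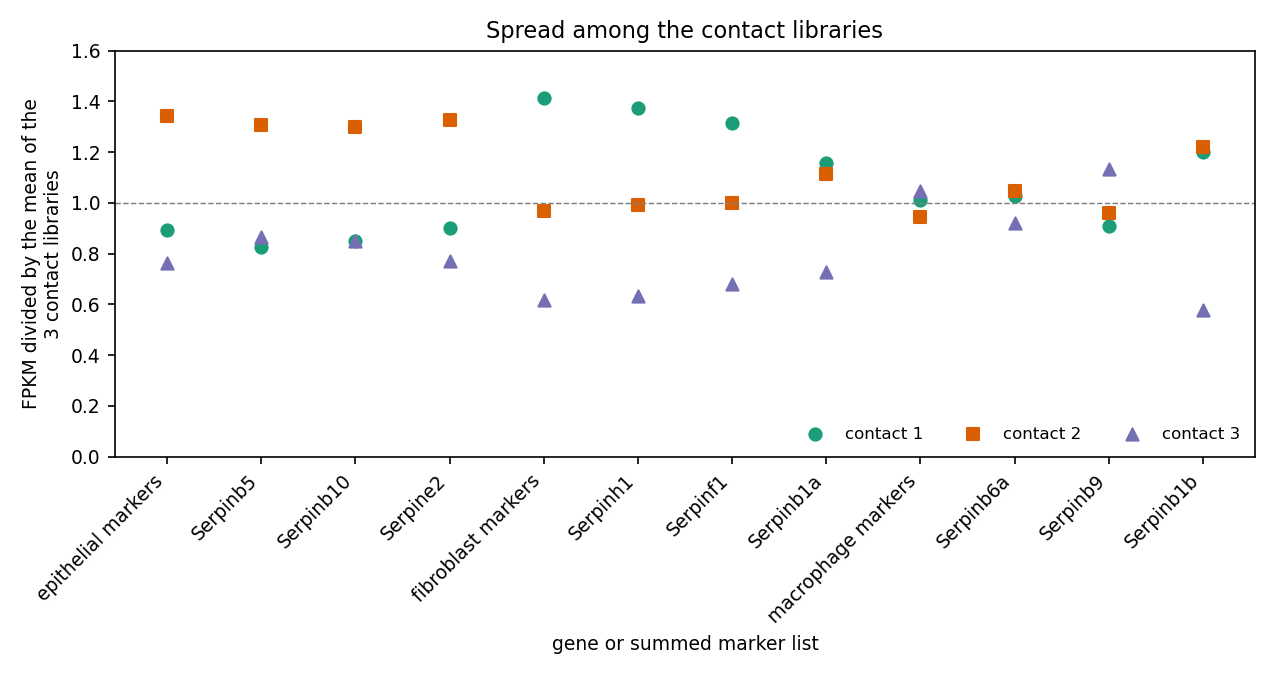
FPKM in each contact library divided by the mean of the 3, for single serpin genes and for the summed epithelial, fibroblast and macrophage markers. Contact replicate 2 leads for the epithelial markers, Serpinb5, Serpinb10 and Serpine2, replicate 1 leads for the fibroblast markers, Serpinh1, Serpinf1 and Serpinb1a, and Serpinb6a and the macrophage markers stay near 1.

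The serpins that the liver secretes into plasma split the libraries without regard to group. They are the antitrypsin genes Serpina1a to Serpina1e, Serpina3k, the antithrombin gene Serpinc1, the antiplasmin gene Serpinf2 and the heparin cofactor gene Serpind1, set together here after their values were seen. Serpina1e, the highest of them, had 499, 27 and 158 counts in the contact group, against 0, 356 and 1 in transwell replicates 1 to 3 (13.7, 0.80 and 4.40 FPKM, and 0, 12.1 and 0.03 FPKM). Serpina3k had 441, 25 and 113 counts in contact and 0, 336 and 0 counts in transwell libraries. In both genes contact replicate 1 and transwell replicate 2 were high, contact replicate 3 was intermediate and transwell replicates 1 and 3 were at or near 0.

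Alb, which marks hepatocytes, had 2204, 99 and 583 counts in contact and 3, 1736 and 6 counts in transwell libraries, the same order. Per 100 Alb counts, Serpina1e had 22.6, 27.3 and 27.1 counts in contact replicates 1 to 3 and 20.5 in transwell replicate 2, and Serpina3k had 20.0, 25.3, 19.4 and 19.4. Serpinf2 kept no such ratio, with 1.13, 13.1, 1.37 and 2.07 counts per 100 Alb counts, nor did Serpinc1, with 3.45, 13.1, 3.95 and 2.19, or Serpind1, with 0.817, 9.09, 0.686 and 0.979. Of Serpinc1's 50-base stretches, 58.8% occur in transcripts of Zbtb37, which it overlaps. The part of liver transcripts in these values was not tested.

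None of the 8 tested serpins of this group was called between contact and transwell by DESeq2 or in the edgeR fit over 14113 genes. None had an unadjusted p under 0.05 in that edgeR fit, where 21.4% of all genes were called higher and 16.1% lower. For Serpina1e the log2 change was 0.55 ± 1.30 (SE, edgeR adjusted p = 0.781) and for Serpina3k 0.40 ± 1.34 (SE, edgeR adjusted p = 0.849). Without transwell replicate 2 the Serpina1e change was 8.16 and that of Serpina3k 10.43, both called higher, and without contact replicate 1 they were -0.73 and -1.06, not called. With all libraries but no filter on low counts, edgeR called Serpina1c and Serpina1e higher in contact. Serpina1e and Serpina3k are among the 9 members with a transwell mean of at least 1 FPKM through transwell replicate 2 alone. Read sharing also limits the single Serpina1 genes: 35.6 to 79.3% of their 50-base stretches occur in another gene's transcript, so how counts were split among the 5 is uncertain. With contact replicate 1 and transwell replicate 2 both left out, a setting added after the data were seen, 6 serpins were higher and 3 lower. Of those called with all libraries, 4 of the 7 higher and all 3 lower ones were among them, Serpinh1 and Serpinf1 were among those lost, and Serpina1e and Serpina3k were gained.

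**Figure D4:**
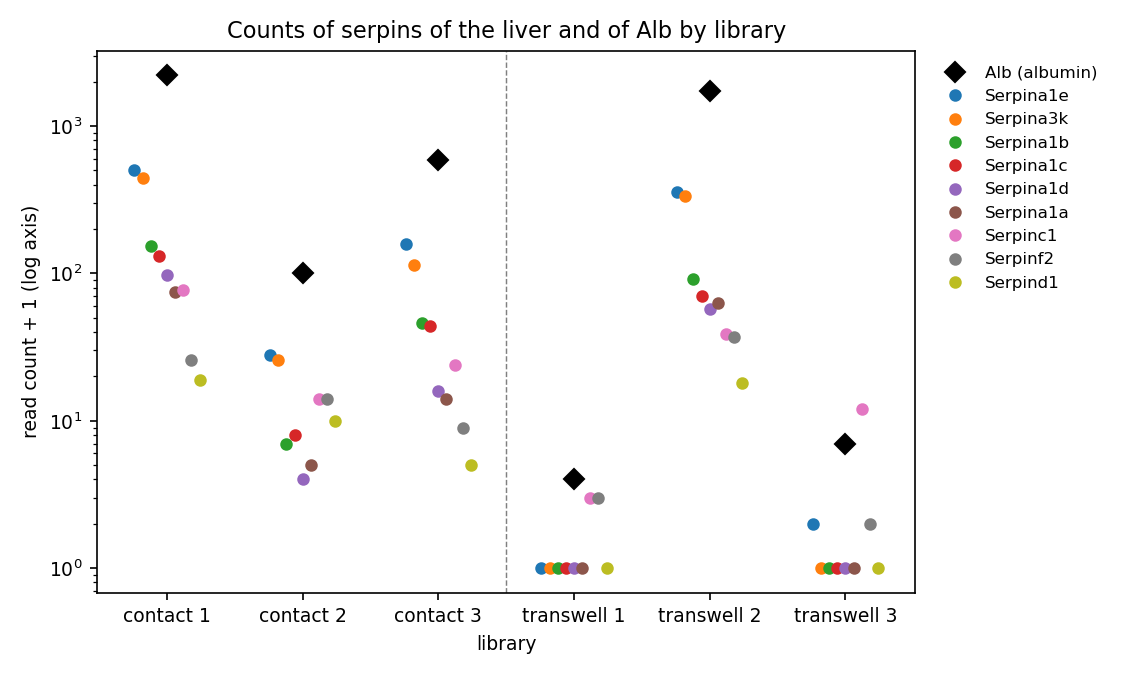
Read counts plus 1 on a log axis for 9 liver serpins and for Alb in each library, with contact libraries left of the dashed line. Contact replicate 1 and transwell replicate 2 hold the most, contact replicate 3 fewer, and transwell replicates 1 and 3 hold at most 11 counts of any of these serpins.

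For the Serpina1 genes one promoter window is shown, that of Serpina1e (RefSeq, GRCm38.p6, minus strand, printed 5′ to 3′ along the gene). Capitals mark GTTAAT, a half-site of the liver factor HNF1, searched on both strands.
Serpina1e, chr12:103956848-103957147: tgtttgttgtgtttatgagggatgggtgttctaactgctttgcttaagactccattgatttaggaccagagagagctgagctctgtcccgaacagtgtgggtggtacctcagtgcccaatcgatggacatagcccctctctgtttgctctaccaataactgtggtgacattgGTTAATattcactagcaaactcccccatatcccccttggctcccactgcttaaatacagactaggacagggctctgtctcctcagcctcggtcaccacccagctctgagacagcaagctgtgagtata

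GTTAAT starts 78 bases before the RefSeq start of Serpina1e, whose window lies inside the gene's GENCODE span (103946931 to 103958975). It occurred in the windows of 6 of the 27 measured members with one (22.2%), namely Serpina1a to Serpina1e and Serpinb8, and in 7.10% of all windows. Serpina1a to Serpina1e are close relatives, and a match describes letters and not a binding site. Serpina3k has no window in the table and was not searched. The chromosome 12 array (103614786 to 104414329, 0.8 Mb) holds 28 members, of which 9 were measured, 7 tested and 0 called. Over the 14113 genes tested, 21.4% were called higher and 16.1% lower. In 6 of the 7, fewer than 2 transwell libraries were above the filter's minimum, so these could hardly be called lower. None of the 7 had an unadjusted p under 0.05 in that edgeR fit, and DESeq2 called 0 as well.

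The chromosome 13 array (32842092 to 34002794, 1.16 Mb) holds 17 members, of which 8 were measured and 7 tested. Of the 7, 1 was higher (Serpinb1a) and 3 were lower (Serpinb9, Serpinb9b and Serpinb1b), where 21.4% and 16.1% of all genes tested were. Serpinb6b, a relative of Serpinb6a, stood at 1.02, 0.95 and 1.02 FPKM in contact and 0.80, 0.61 and 0.86 FPKM in transwell libraries, and was not called (log2 change 0.28 ± 0.25, SE, edgeR adjusted p = 0.417). Outside arrays, 3 of 4 tested members rose, Serpine2 and Serpinh1 among them, and Serpinc1 was not called.

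Of the 31 measured members, 5 were too low for the test. Serpinb6c had 9, 25 and 6 counts in contact libraries. It had none in transwell libraries. Against a floor of 3 counts set for that group it was 11.3-fold higher, with its contact counts taken as exact. Of its 40 counts 25 were in contact replicate 2, and without that library the value was 6.21-fold. Serpina3b was the reverse, without a count in contact and with 24, 4 and 4 counts in transwell libraries. Against the same floor it was 12.6-fold lower, with its transwell counts taken as exact. Of its 32 counts 24 were in transwell replicate 1, and without that library the value was 4.77-fold. Serping1, the inhibitor of the first complement proteases, had 20, 8 and 10 counts in the contact group, against 7, 16 and 2 in the transwell group, so the groups overlapped. Serpind1 and Serpina3n were the other 2.

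The remaining tested members were low and not called. Serpinb12 stood at 0.687 ± 0.0764 FPKM in contact and 0.88 ± 0.161 FPKM in transwell libraries, and Serpini1, a neuronal inhibitor of tissue plasminogen activator, at 0.22 ± 0.01 and 0.213 ± 0.0902 FPKM (SD, n = 3). Serpina3g, an inhibitor of cathepsins in leukocytes, was at 0.26 ± 0.0889 and 0.457 ± 0.22 FPKM (log2 change -0.91 ± 0.43, SE, edgeR adjusted p = 0.134). At the limit of 30 counts, Serpina3n and Serpina3b had 32 counts inside it and Serpina3f 27 outside. At the limit of 1 FPKM in transwell, Serpinh1 had 1.52 FPKM inside it and Serpinb1a 0.97 FPKM outside.

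The related genes are given by list, beside the 21.4% higher and 16.1% lower among all genes tested, and counts near those shares set no list apart. In each list 1 to 5 tested genes had fewer than 2 transwell libraries above the filter's minimum. Genes of plasminogen activation and coagulation rose in 7 and fell in 4 of 21 tested cases (median log2 change 0.18). Plau, the gene of urokinase, which Serpinb2 inhibits, rose from 11.2 ± 1.50 to 16.9 ± 0.728 FPKM (log2 change 0.47). Its receptor gene Plaur rose from 38.0 ± 5.48 to 78.8 ± 0.751 FPKM (0.93), and F2rl1, a protease-activated receptor gene, from 0.00667 ± 0.0115 to 1.10 ± 0.431 FPKM. Lrp1, a receptor that clears serpin-protease complexes, fell by 0.47 on the log2 scale, and Procr and Tfpi, a receptor and an inhibitor of coagulation, fell, from 49.5 ± 2.75 to 26.6 ± 2.04 FPKM for Procr and by 0.85 on the log2 scale for Tfpi. Plat, the other activator gene, rose but stayed low (0.15 ± 0.0781 against 0.0167 ± 0.0153 FPKM). Plg, the plasminogen gene, and Vtn, the vitronectin gene, were not called, and both had 0 counts in transwell replicates 1 and 3.

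Granule serine proteases rose in 4 and fell in 1 of 8 tested cases (median 1.02), the fall being Gzmb. Cathepsins rose in 3 and fell in 5 of 14 (median -0.22), with the share of rises near that of all genes. Ctsb fell by 0.26 on the log2 scale, from 1615 ± 91.5 to 1462 ± 69.4 FPKM, Ctsz by 0.58, Ctsk by 0.52 and Ctsa by 0.47, while Ctsf rose (0.63). Ctsl (188.5 ± 3.83 against 195.8 ± 6.11 FPKM) and Ctss (3551 ± 68.4 against 2934 ± 33.4 FPKM) were not called. Of 18 membrane serine proteases 9 were tested, and 4 of the 9 had fewer than 2 transwell libraries above the filter's minimum, so they could hardly be called lower. Of the 9, 7 rose, among them St14 (1.47 ± 0.45 against 0.213 ± 0.0351 FPKM), Htra1 (3.35), Prss23 (3.26) and Prss22 (6.34). Klk10 had 0 counts in every transwell library and 1.30 ± 0.511 FPKM in contact. Several of these proteases are known from epithelium, and the part of epithelial transcripts here was not tested.

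Of 11 tested genes of the contact system and early complement, whose first proteases Serping1 inhibits, 3 fell and 1 rose (median -0.35). C1ra fell from 9.70 ± 0.802 to 3.23 ± 0.201 FPKM, Cfb by 2.44 and C3 by 0.56 on the log2 scale, and C1qa rose (0.27). C1s1 was not called (log2 change -0.74, edgeR adjusted p = 0.0529). Other protease inhibitors rose in 8 and fell in 5 of 16 (median 1.02): Slpi, the secretory inhibitor of elastase, fell from 654.3 ± 49.1 to 331.4 ± 16.0 FPKM, and Wfdc2 (8.29), Spint2 (3.60), Spint1 (1.87) and Timp3 (2.34) rose. Genes of collagen chains and of their folding, which Serpinh1 serves, rose in 14 and fell in 6 of 22 (median 1.54), with Col17a1 (10.38), Col7a1 (3.13), Plod2 (2.98) and Fkbp10 (2.64) among the rises. All changes of named genes in these lists are log2 values from edgeR, and levels are means ± SD (n = 3).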

How the data were processed

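Per the file headers, the authors deposited whole read counts for each Ensembl gene in 6 libraries, with FPKM beside them. Of values with a count above 100, 99.93% of the deposited FPKM lay within 1% of the value computed from count, exonic length and library total. Builds GRCm38 and mm10 are listed per the submitters' processing notes. The sources used here do not give the aligner, counter, annotation or strand setting, so counts of overlapping or near-identical genes are uncertain. Start and end of a gene were equal in the deposited table and in GENCODE M21 for 1472 of 52073 shared gene IDs, so positions come from GENCODE M21 (GRCm38) by gene ID, where all 69 members matched. Promoter windows are from RefSeq (GRCm38.p6), matched by symbol for 54 members.

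Groups and replicate numbers come from the sample titles. Genes were filtered with filterByExpr (minimum count 10), scaled with TMM and compared by edgeR's quasi-likelihood test without a replicate block, two-sided, with Benjamini-Hochberg adjustment over 14113 genes (edgeR 4.0.16, limma 3.58.1, DESeq2 1.42.0, R 4.3.3). Standard errors are the absolute log2 change over the square root of F. No libraries of a group held identical values, and their counts differed by a chi-square of 5.89 to 22.8 per degree of freedom. Shared sequence is the percentage of distinct 50-base stretches of a gene's longest GENCODE transcript found on either strand in transcripts of other genes. Arrays are runs of members within 1 Mb of each other. The test script was checked on simulated counts.

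The members, gene lists and tests were chosen with earlier results of these data known. Named in full are members with a transwell mean of at least 1 FPKM, called members with a contact mean of at least 1 FPKM, up to 4 called genes per related list with a mean of at least 1 FPKM, and genes given always. One member is counted but not reported singly here. Serpinb9b, the liver serpins, Alb and the members too low to test were added after their values were seen. Alternatives were other scalings, filters, pseudocounts, limma, DESeq2, a replicate block and each library left out. Figures were drawn with matplotlib 3.10.9.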

Additional observations from a re-analysis of the deposited data

How the results depend on the processing

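Over 16 alternatives, 181 of 203 recomputed changes of the 13 named serpins kept their direction and their side of the threshold, and 6 lost and 10 gained a call. The calls of Serpinb5, Serpinb9, Serpinb10, Serpinb1a, Serpinb1b and Serpine2 held wherever they could be tested. The number of serpins higher in contact was 4 to 14 with single libraries left out, against 7 with all of them. With only genes of a mean transwell FPKM of at least 1 tested it was 3, where fewer members were tested. Among serpins at that level the number higher was 0 to 4 with single libraries left out and 1 under DESeq2, against 2. The count of 14 came without transwell replicate 2, where Serpina1e stood at 8.16 and Serpina3k at 10.43, with Serpina1a to Serpina1e, Serpina3k and Serpinf2 gained, and the counts of 4 without contact replicate 1 or transwell replicate 3, with Serpinh1 and Serpinf1 among those lost. Serpina1e reversed to -0.73 without contact replicate 1, -0.04 without transwell replicate 1 and -0.04 without transwell replicate 3, and Serpina3k to -1.06, -0.19 and -0.20. The cause of these changes was not tested. Serpinb6a was called higher under 5 alternatives. In limma the median of all genes was 0.09 to 0.14. With no filter on low counts 10 serpins were higher and 4 lower, with Serpina1c, Serpina1e, Serpinb6c and Serpina3b gained. The number of all genes called was 5286, and 4042 to 5310 with single libraries left out.

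With the replicate number as a block, 5124 genes, 7 serpins higher and 3 lower were called. Deviations of same-numbered libraries from their group means correlated at -0.083, -0.445 and 0.056, and those of the other pairs at -0.303 to 0.336. With 3 libraries per group, these values cannot decide whether same-numbered libraries shared a culture, animal or day. Depth limits the 15 members with 1 to 27 counts, which were not tested or described singly.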
